A study of Mus musculus with 12 samples.

Results

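The genes described here are 43 mouse genes of the interferon response and of antigen processing, fixed by name: factors that carry the interferon signal to DNA, sensors of foreign RNA and DNA, antiviral effectors, interferon-inducible GTPases, regulators that work through ubiquitin or ADP-ribose, and the parts of the immunoproteasome and of peptide loading. The names were chosen by what the genes do, with earlier results of these data known. All 43 of the 43 were found among the 23284 gene symbols measured. RNA sequencing was done on the mouse T cell acute lymphoblastic leukemia line 8946, with 4 groups of 3 libraries. All cells had been transduced with a pair of retroviruses and sorted for both of their markers, green fluorescent protein and NGFR. The combined cells (Notch1+Zmiz1 in the titles) received L1601P, a mutant of the receptor Notch1, and Zmiz1, a coactivator related to the PIAS proteins. Zmiz1-titled cells received Zmiz1 with the empty MigR1 vector, Notch1-titled cells received L1601P with the empty NGFR vector, and control cells received both empty vectors.

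Group names follow the sample titles, since the cell line label gives the vectors of both single-vector groups the other way round. Zmiz1 averaged 49.3 FPKM in combined, 70.8 in Zmiz1-titled, 0.212 in Notch1-titled libraries and 0.176 in control libraries. Notch1 averaged 35.6 FPKM in combined, 2.1 in Zmiz1-titled, 32.1 in Notch1-titled libraries and 1.89 in control libraries, so both vector genes went with the titles. FPKM is a level scaled by gene length and by the size of the library. All groups are of a single cell line, and each vector gene lay far above its control level in the groups that received it. No label tells whether separate transductions or cultures stand behind the 3 libraries per group. The p-values therefore measure the spread between these libraries, which may be technical. As for cell type, all 10 T cell markers of the list were expressed, while Ms4a1 (B cells), Ncr1 and Klrk1 (natural killer cells) were listed at 0 in all 12 libraries and Lyz2 and Csf1r (myeloid cells) stayed at or below 0.0669 FPKM. Of the 7 myeloid and dendritic markers, Itgam, an integrin, had 50.9 to 102 FPKM and Cd68, a lysosomal protein, 0.957 to 2.09 FPKM, and the other 5 averaged under 1 FPKM. The 4 replicate 1 libraries differed from the other 8 in the spacing of their lowest FPKM values, a difference spread evenly over the groups.

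Interferons are secreted signals of infection. Type I interferon acts through a complex that holds STAT2 and IRF9 and binds the interferon-stimulated response element (ISRE), and type II interferon acts through the gamma-activated site (GAS). Many of the genes are also held at a base level without infection, and in T cells the immunoproteasome and the peptide transporter supply peptides to MHC class I.

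Promoters are shown first, because the genes are grouped by a shared response and the start-site windows let a reader see which of them hold the letters of that response. Windows run from 250 bases before to 50 bases after the RefSeq start (GRCm38.p6, 300 bases, written along the gene's own strand), and capitals mark a match. The ISRE core was searched as GAAA, any 2 bases and GAAA again, or its reverse complement with TTTC in place of GAAA, and the GAS core as TTCNNNGAA, whose fixed letters read the same on both strands. Isg15 (an ubiquitin-like modifier, 3 overlapping ISRE cores), Bst2 (tetherin, 2 overlapping ISRE cores and a GAS core that overlaps them) and Igtp (a GTPase, 1 of each) show the arrangements found, and Isg20 and Epsti1 had the largest called rise and fall in the comparisons.
Isg15, chr4:156200769-156201068, minus strand: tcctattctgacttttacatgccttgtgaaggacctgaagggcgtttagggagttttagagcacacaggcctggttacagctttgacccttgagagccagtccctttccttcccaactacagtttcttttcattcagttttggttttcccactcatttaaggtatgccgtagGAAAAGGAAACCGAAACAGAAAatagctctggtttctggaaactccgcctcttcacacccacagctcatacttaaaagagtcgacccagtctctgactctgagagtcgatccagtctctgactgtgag
Bst2, chr8:71537423-71537722, minus strand: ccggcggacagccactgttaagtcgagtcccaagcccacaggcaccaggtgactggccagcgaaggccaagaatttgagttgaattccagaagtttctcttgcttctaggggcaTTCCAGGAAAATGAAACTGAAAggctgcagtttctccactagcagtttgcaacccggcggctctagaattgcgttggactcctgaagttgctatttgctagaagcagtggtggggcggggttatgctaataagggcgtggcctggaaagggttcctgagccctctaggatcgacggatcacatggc
Igtp, chr11:58199306-58199605, plus strand: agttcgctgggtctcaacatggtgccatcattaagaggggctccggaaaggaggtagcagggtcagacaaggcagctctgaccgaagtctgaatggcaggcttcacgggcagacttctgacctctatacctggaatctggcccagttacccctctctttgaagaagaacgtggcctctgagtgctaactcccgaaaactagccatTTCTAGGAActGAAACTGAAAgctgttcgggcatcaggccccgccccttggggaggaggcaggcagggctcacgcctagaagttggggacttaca
Isg20, chr7:78913174-78913473, plus strand: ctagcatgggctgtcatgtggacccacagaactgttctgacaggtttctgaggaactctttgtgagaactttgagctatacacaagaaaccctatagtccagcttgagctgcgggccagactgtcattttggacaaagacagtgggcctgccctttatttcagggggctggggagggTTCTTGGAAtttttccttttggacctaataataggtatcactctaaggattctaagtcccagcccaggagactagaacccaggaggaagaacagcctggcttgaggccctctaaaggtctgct
Epsti1, chr14:77903989-77904288, plus strand: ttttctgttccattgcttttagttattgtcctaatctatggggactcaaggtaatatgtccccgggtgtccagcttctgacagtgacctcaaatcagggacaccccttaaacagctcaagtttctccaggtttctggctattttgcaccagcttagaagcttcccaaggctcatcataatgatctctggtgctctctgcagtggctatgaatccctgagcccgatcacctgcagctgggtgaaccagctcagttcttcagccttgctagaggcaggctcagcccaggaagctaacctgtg
The Isg15 cores lay between 78 and 57 bases before the start, the Bst2 cores between 136 and 115, and the Igtp cores between 45 and 25. Isg20 had a GAS core 73 to 65 bases before the first of its 3 RefSeq starts and no ISRE core, and Epsti1 had neither motif in its window. Dtx3l and Lgals3bp, also called, had neither motif, and Ifi27l2a, called as well, had no window to search.

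Of the 43 genes, 34 had a promoter window. An ISRE core was found for 15 of them (44.1%), against 3.99% of the 27025 genes with a window, and a GAS core for 10 (29.4%), against 9.55% of those genes. By role, the ISRE core was found for 4 of 4 GTPases, 4 of 6 sensors, 5 of 12 antiviral effectors, 1 of 4 factors, 1 of 3 ubiquitin and ADP-ribose regulators and 0 of 5 loading genes. By level, an ISRE core was found for 7 of the 9 genes with a window and a mean under 1 FPKM in these cells, and for 8 of the 25 with a higher mean. A match is a run of letters and shows no binding.

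Levels ran from silent to abundant. Of the 43 genes, 30 averaged 1 FPKM or more across all 12 libraries. Each of them averaged 1.15 FPKM or more in every group, so none passed on the strength of a single group. The other 13 were Ifih1, Dhx58, Oas1a, Oasl2, Isg15, Ifit1, Ifit3, Mx1, Mx2, Xaf1, Gbp2, Gbp3 and Usp18, among them several of the genes usually most strongly induced by type I interferon, and no library had more than 1.24 FPKM of any of them. Oas1a, a sensor of double-stranded RNA, was listed at 0 in all 12 libraries and could not be tested. None of the other 12 was called in a limma fit of the 16835 genes above 0 in any library. That fit called 1.64% of genes in Zmiz1-titled over control, 3.56% in Notch1-titled over control, 1.15% in combined over Notch1-titled, 2.55% in combined over Zmiz1-titled and 4.4% in combined over control cells, and 0.107% in the interaction. The interferons themselves were at or near 0 as well: 10 of 12 listed interferon genes were in the files, and the highest value of any was 0.188 FPKM, for Ifnk. At the other end stood the antigen-processing genes, with Tap2 at group means of 190 to 221 FPKM and Psmb8 at 186 to 213 FPKM.

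**Figure D1:**
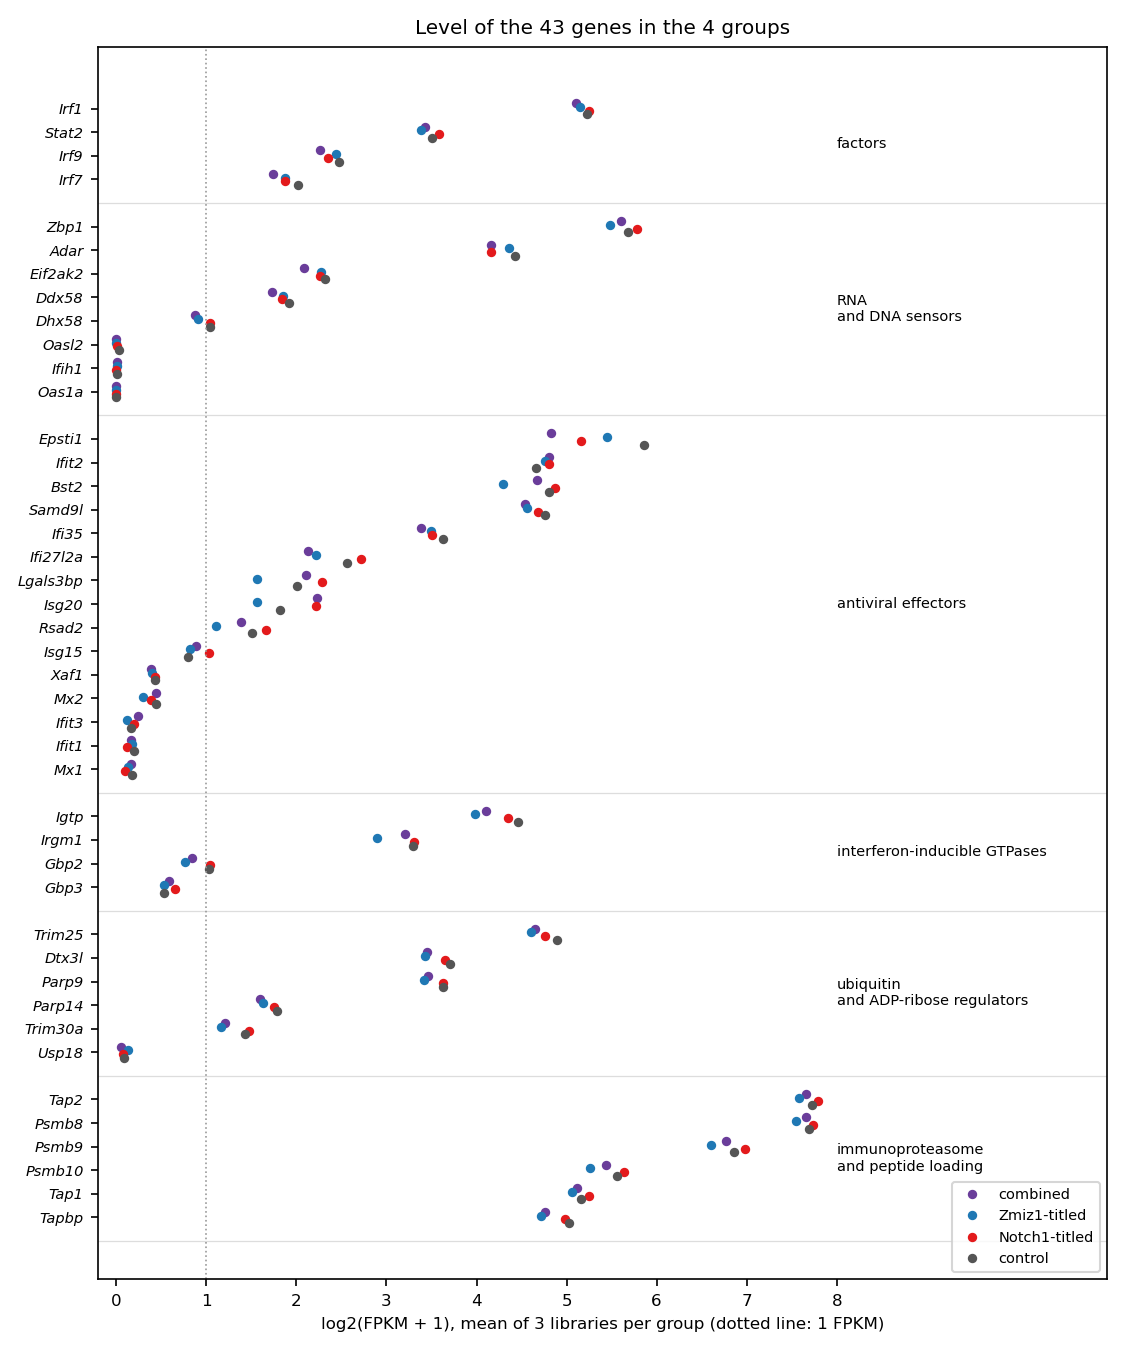
Group means of the 43 genes on a log2(FPKM + 1) axis, 4 points per gene for combined, Zmiz1-titled, Notch1-titled and control libraries (n = 3 each), ordered by level within each role; the dotted line marks 1 FPKM. The 6 loading genes all lie to the right of the line, while 6 of the 15 antiviral effectors, 4 of the 8 sensors and 2 of the 4 GTPases average less than 1 FPKM.

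The antiviral effectors held neighbours of 1 family at very different levels. Ifit2, which binds RNA and limits viral translation, had 27.1, 26.4 and 27.2 FPKM in combined, 28.5, 22.9 and 27.0 in Zmiz1-titled, 28.5, 26.9 and 25.4 in Notch1-titled libraries and 24.3, 23.3 and 25.3 in control libraries. Ifit3 and Ifit1, on the same strand of chromosome 19 with start sites 32837 and 90177 bases from that of Ifit2, had at most 0.205 and 0.204 FPKM in any library. The windows of Ifit1 and Ifit3 each held 2 ISRE cores, while the windows of Ifit2 held a GAS core and no ISRE core. Ifit2 was the only one of the 30 tested genes whose log2 fold change in Zmiz1-titled over control cells was not negative (0.09).

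All 10152 genes that averaged 1 FPKM or more were tested with limma on log2(FPKM + 1), so a fold change understates that of a low gene. "Rose", "fell" and "called" mean an adjusted p under 0.05 over all 10152 genes (Benjamini-Hochberg).

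Zmiz1-titled over control cells asked what Zmiz1 did without the Notch1 mutant. Lgals3bp, a secreted glycoprotein, fell, and it was the only one of the 30 tested genes called, against 1.03% of all genes called lower and 2.11% called in either direction. The other genes mostly lay a little below control without passing the test. The log2 fold change was negative for 29 of the 30, against 49.1% of all genes, with a median of −0.21, against 0.0017 over all genes. All 3 Zmiz1-titled libraries lay below all 3 control libraries for 16 of the 30 (53.3%), against 9.12% of all genes, and 15 had an unadjusted p under 0.05 and a lower value, against 6.72% of all genes.

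Lgals3bp (chr11:118392751-118402092, minus strand, GRCm38) had 1.96, 2.04 and 1.87 FPKM in Zmiz1-titled libraries, against 2.86, 3.25 and 2.96 in control libraries. The groups did not overlap, and the log2 fold change was −0.44 ± 0.082 (SE; limma adjusted p = 0.0210). The call was lost without control replicate 1, 2 or 3 or Zmiz1-titled replicate 1 or 3 (limma adjusted p = 0.0553, 0.116, 0.0891, 0.0619 and 0.0658), while the fold change stayed between −0.47 and −0.40. It was also lost with only the compared groups in the fit (limma adjusted p = 0.0645), where Bst2 was the 1 gene of the 30 called instead. Just short of the threshold lay Ifi27l2a, a small interferon-induced mitochondrial protein (−0.34, limma adjusted p = 0.0509), Igtp (−0.49, 0.0541), Trim25, a ubiquitin ligase that activates the sensor RIG-I (−0.29, 0.0567), Tapbp (tapasin, which holds empty class I at the transporter; −0.31, 0.0570) and Dtx3l (−0.28, 0.0587), all with no overlap between the groups.

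By role, the median log2 fold change of the tested genes in Zmiz1-titled over control cells was −0.46 for the 2 GTPases, −0.34 for the 9 antiviral effectors, −0.27 for the 5 ubiquitin and ADP-ribose regulators and −0.20 for the 6 loading genes. It was −0.095 for the 4 factors and −0.075 for the 4 sensors, none of which had separate groups. T cell markers moved with these values: all 10 had a negative log2 fold change, against 49.1% of all genes, with a median of −0.23. All Zmiz1-titled libraries lay below control for 8 of 10, against 9.12% of all genes. Of the 10 markers Cd7 (−0.86), Lck (−0.35) and Cd3d (−0.30) fell, against 1.03% of all genes called lower. The Lck call was lost when any of 6 libraries was left out alone (limma adjusted p up to 0.139) and the Cd3d call when any of 9 was (limma adjusted p up to 0.181), while the Cd7 call was kept. The summed level of the list was 2632 to 2919 FPKM in Zmiz1-titled and 3156 to 3267 FPKM in control libraries. Their part in the lower values of the interferon genes was not tested. In bulk RNA, fewer cells of a type and less RNA per cell cannot be told apart.

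**Figure D2:**
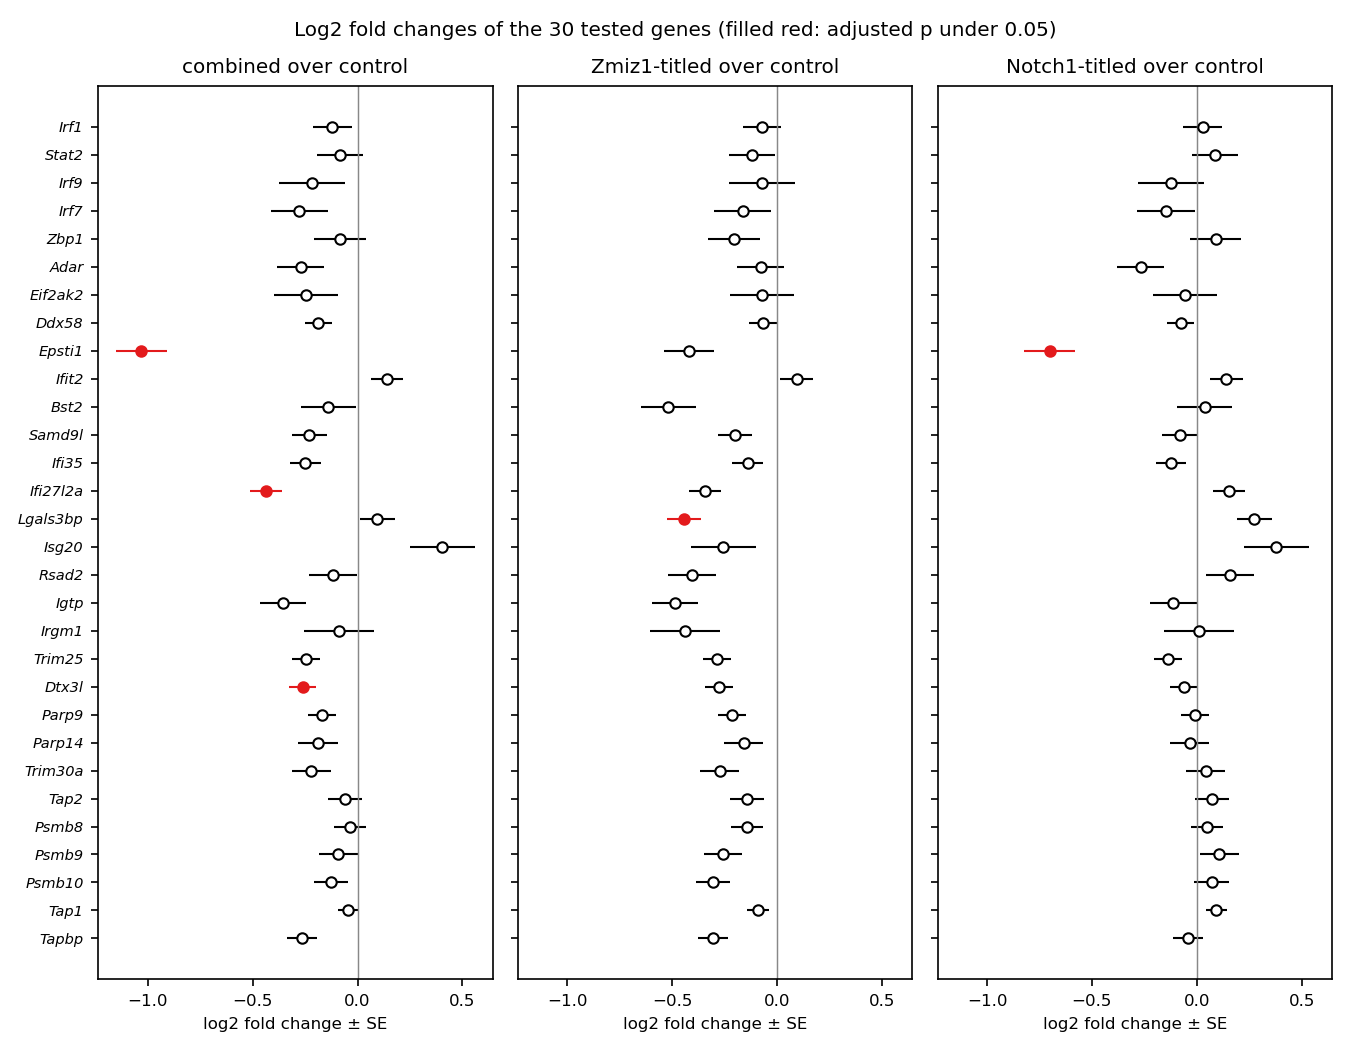
Log2 fold changes ± SE of the 30 tested genes from the limma fit, combined over control, Zmiz1-titled over control and Notch1-titled over control; filled red points have an adjusted p under 0.05. In the middle panel 29 of 30 points lie left of 0, while in the right panel 14 do; the called genes are Epsti1, Ifi27l2a and Dtx3l in the left panel, Lgals3bp in the middle and Epsti1 in the right.

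The same vector was next read where the mutant was present, in combined over Notch1-titled cells, which share no library with the previous comparison. Ifi27l2a fell and was again the only one of the 30 called, against 0.68% of all genes called lower and 1.51% in either direction. The log2 fold change was negative for 28 of 30, against 50.2% of all genes, with a median of −0.16, against −0.0003. All 3 combined libraries lay below all 3 Notch1-titled libraries for 9 of the 30, against 7.81% of all genes, and 9 had an unadjusted p under 0.05 and a lower value, against 4.59% of all genes. T cell markers were again lower beside them, with a negative log2 fold change for 9 of 10, a median of −0.19 and no call. Their summed level was 3054 to 3197 FPKM in combined and 3260 to 3718 FPKM in Notch1-titled libraries, and their part in the result was not tested.

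Ifi27l2a (chr12:103442167-103443680, minus strand) had 3.32, 3.37 and 3.43 FPKM in combined libraries, against 4.86, 5.94 and 6 in Notch1-titled libraries. It had 3.79, 3.55 and 3.66 FPKM in Zmiz1-titled libraries, against 5.31, 4.71 and 4.75 in control libraries. All 6 libraries with the Zmiz1 vector lay below all 6 without it. The log2 fold change in combined over Notch1-titled cells was −0.59 ± 0.077 (SE; limma adjusted p = 0.00292), and it stayed called without any 1 library.

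Both comparisons gave a negative log2 fold change for 28 of the 30 genes, against 32.7% of all genes tested. The 3 libraries with Zmiz1 lay below the 3 without it in both comparisons for 8 of the 30, against 3.44% of all genes: Dtx3l, Epsti1, Ifi27l2a, Igtp, Parp9, Rsad2, Tapbp and Trim30a. Across the 30 genes the fold changes of the 2 comparisons had a Pearson correlation of 0.489, against 0.114 across all 10152 genes; genes share their libraries and are not independent replicates. The interaction, which asks whether the Zmiz1 difference itself changed with the mutant, called 0 of the 30 genes, against 0.069% of all genes. At an unadjusted p under 0.05 it held 2 of the 30, Lgals3bp with a positive value (0.26) and Ifi27l2a with a negative one (−0.25), against 1.71% and 1.56% of all genes. Zmiz1 itself was lower in combined than in Zmiz1-titled cells (log2 fold change −0.51, limma adjusted p = 0.000312), and the 2 comparisons therefore differ in its level.

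**Figure D3:**
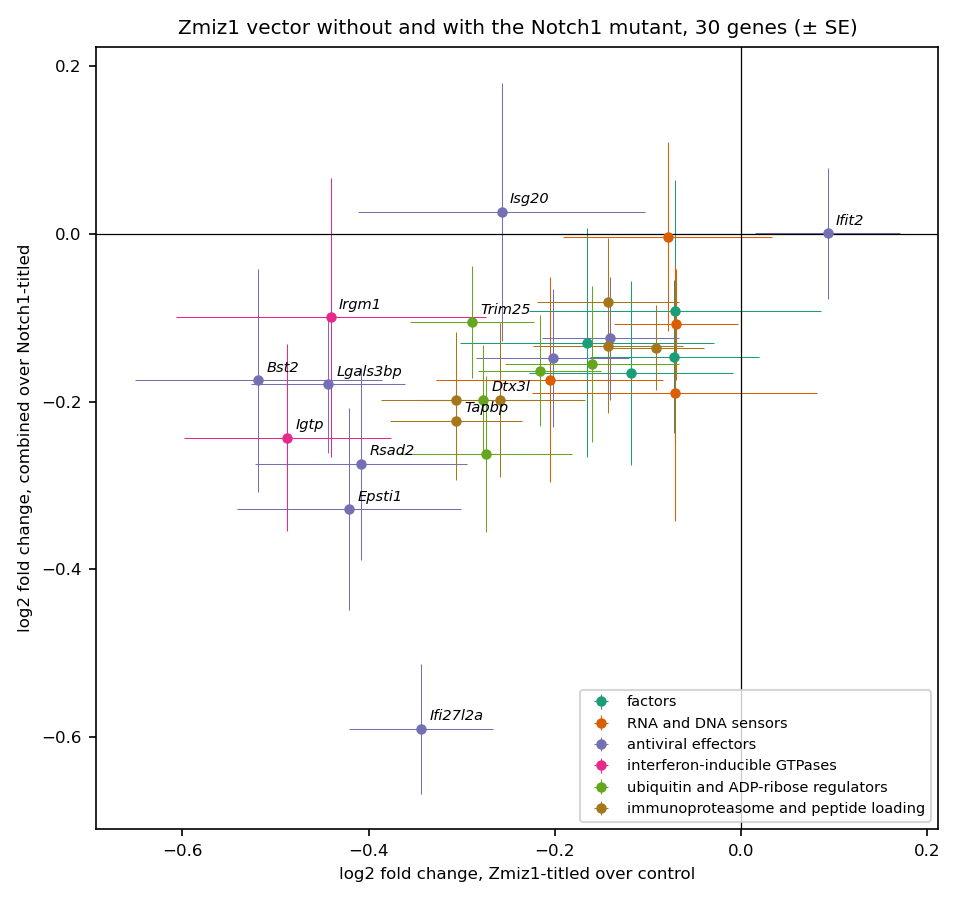
Log2 fold change of each of the 30 tested genes in Zmiz1-titled over control cells (x axis) and in combined over Notch1-titled cells (y axis), with SE bars, coloured by role. Of the points, 28 lie to the left of and below 0; Ifi27l2a lies lowest, at −0.34 and −0.59, and Ifit2 and Isg20 are the 2 outside.

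The Notch1 mutant gave no common direction. In Notch1-titled over control cells 14 of the 30 log2 fold changes were negative, against 42.9% of all genes, and the median was 0.019, against 0.025. Under median ratio and quantile scaling that median turned to −0.013 and −0.029, with 16 and 18 negative. All 3 Notch1-titled libraries lay below all 3 control libraries for 4 of the 30, against 10.3% of all genes. They lay above for 3, against 15.8%. Epsti1, an interferon-induced gene first described in epithelial and stromal cells, fell and was the only one called, against 2.3% of all genes called lower and 5.49% in either direction. In combined over Zmiz1-titled cells, which add the mutant to Zmiz1, Lgals3bp and Isg20 rose, against 2.67% of all genes called higher, and Epsti1 fell, against 1.19% called lower and 3.86% in either direction. All 3 combined libraries lay below all 3 Zmiz1-titled libraries for 4 of the 30, against 7.54% of all genes. They lay above for 6, against 13.5%.

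Epsti1 (chr14:77904239-78002657, plus strand) had 30.9, 34.8 and 38.7 FPKM in Notch1-titled libraries, against 52.8, 59.9 and 58.6 in control libraries. It had 24.9, 29.6 and 27.9 FPKM in combined libraries, against 37.7, 50.9 and 39.5 in Zmiz1-titled libraries. Neither pair of groups overlapped, and the 3 combined libraries were the lowest of the 12. The log2 fold change was −0.70 ± 0.12 (SE; limma adjusted p = 0.00675) in Notch1-titled over control and −0.61 ± 0.12 (SE; limma adjusted p = 0.0181) in combined over Zmiz1-titled cells. The second call was lost without combined replicate 1 or 3 (limma adjusted p = 0.0769 and 0.0663). It was also lost with only the compared groups in the fit (limma adjusted p = 0.102). With Zmiz1 the log2 fold change of Epsti1 was −0.42 in Zmiz1-titled over control and −0.33 in combined over Notch1-titled cells, and neither passed the test (limma adjusted p = 0.134 and 0.368), though the groups did not overlap. Both vectors together gave the largest log2 fold change of the 30 genes, −1.03 ± 0.12 in combined over control cells (SE; limma adjusted p = 0.000493).

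Isg20, a nuclease that degrades viral RNA, had 3.11, 4.32 and 3.63 FPKM in combined libraries, against 1.88, 1.72 and 2.27 in Zmiz1-titled libraries. In the other pair it had 2.63, 4.23 and 4.05 FPKM in Notch1-titled libraries and 2.11, 2.61 and 2.89 in control libraries. The first pair of groups stood apart and the second overlapped by 1 Notch1-titled library. The log2 fold change of Isg20 was 0.66 ± 0.154 (SE; limma adjusted p = 0.0408) in combined over Zmiz1-titled cells, and this call was lost when control replicate 2 or 3, or any of the 6 combined and Zmiz1-titled libraries, was left out alone (limma adjusted p up to 0.182). The Isg20 call was also lost with no filter (limma adjusted p = 0.066) and with only the compared groups fitted (0.0714). Lgals3bp had 3.22, 3.49 and 3.18 FPKM in combined libraries, above the Zmiz1-titled values given for it, with a log2 fold change of 0.54 (limma adjusted p = 0.0043). In Notch1-titled libraries it had 3.42, 4.42 and 3.79 FPKM, a log2 fold change of 0.27 over control that did not pass (limma adjusted p = 0.0895).

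Itgam fell in the same comparisons, by 0.83 on the log2 scale in Notch1-titled over control and by 0.67 in combined over Zmiz1-titled cells. Of all genes, 2.3% and 1.19% were called lower there. Cd68, the other myeloid marker tested, had log2 fold changes of the opposite sign, 0.17 and 0.20, without a call and with overlapping groups. The summed list, nearly all of it Itgam, was 60.8 to 63.1 FPKM in combined, 93.5 to 101 FPKM in Zmiz1-titled, 53.0 to 60.0 FPKM in Notch1-titled libraries and 99.1 to 103 FPKM in control libraries. The defining markers Lyz2 and Csf1r were at or near 0 throughout. The 4 fibroblast markers summed to 0.426 to 0.632 FPKM in combined, 0.659 to 0.870 FPKM in Zmiz1-titled, 0.622 to 0.710 FPKM in Notch1-titled libraries and 1.02 to 1.18 FPKM in control libraries. That sum was highest in control and lowest in combined cells by its mean, as was Epsti1, and most of it was Col1a2, with at most 0.966 FPKM; Col3a1 was listed at 0 in all 12 libraries. Without the filter Col1a2 fell in Notch1-titled over control cells (−0.46, limma adjusted p = 0.00178), against 1.43% of all genes called lower in that fit. The part of the myeloid and fibroblast markers in the results for Epsti1, Isg20 and Lgals3bp was not tested. T cell markers had 1 call in these comparisons, Cd2 in combined over Zmiz1-titled cells (0.43), against 2.67% of all genes called higher. The Cd2 call was lost when any of 10 libraries was left out alone. It was also lost with median ratio scaling and quantile normalization (limma adjusted p = 0.0514 and 0.0543).

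**Figure D4:**
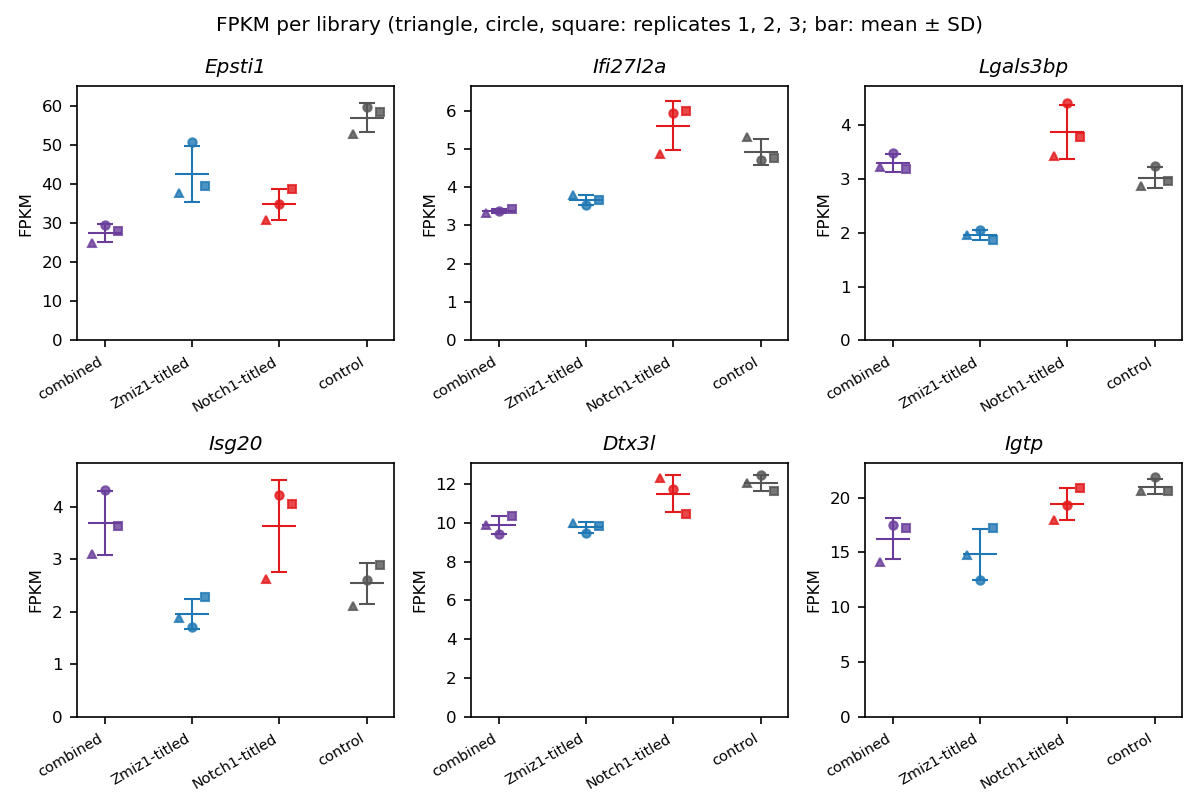
FPKM of 6 genes in each of the 12 libraries (triangle, circle and square for replicates 1, 2 and 3; bars give the mean ± SD, n = 3) for combined, Zmiz1-titled, Notch1-titled and control cells. Epsti1 is lowest in combined cells at 24.9 to 29.6 and highest in control cells at 52.8 to 59.9, Ifi27l2a is low in both groups with the Zmiz1 vector, and Lgals3bp is low in Zmiz1-titled cells at 1.87 to 2.04.

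Both vectors together, in combined over control cells, had 3 of the 30 genes called lower, Epsti1, Ifi27l2a and Dtx3l, and none called higher, against 2.49% of all genes called lower, 3.97% called higher and 6.46% in either direction. The median log2 fold change was −0.18, against 0.025 over all genes, and 12 genes had an unadjusted p under 0.05 and a lower value, against 7.33% of all genes. All 3 combined libraries lay below all 3 control libraries for 16 of the 30 (53.3%), against 13.5% of all genes. They lay above for 2, against 20.1%. Ifi27l2a had a log2 fold change of −0.44 ± 0.077 (SE; limma adjusted p = 0.00706). This comparison shares its control libraries with both single-vector comparisons.

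Dtx3l and Parp9 form a complex that joins ubiquitin and ADP-ribose in interferon signaling and DNA repair, and their start sites on chromosome 16 lie 681 bases apart on opposite strands. Dtx3l (chr16:35926511-35939151, minus strand) had 9.90, 9.42 and 10.4 FPKM in combined libraries, against 12, 12.5 and 11.7 in control libraries (log2 fold change −0.26, limma adjusted p = 0.0379). Parp9 had 9.34, 10.3 and 10.4 FPKM in combined libraries, against 11.8, 11.2 and 11.2 in control libraries (−0.17, limma adjusted p = 0.185). Neither gene's groups overlapped. The genes share 458 exonic bases, 8.0% of Dtx3l and 9.4% of Parp9, and the library kit keeps no strand, so reads of the pair there cannot be told apart. The Dtx3l call was lost when any of the 6 combined and control libraries, Zmiz1-titled replicate 1 or 3 or Notch1-titled replicate 2 was left out alone (limma adjusted p up to 0.166). It was also lost with no filter (limma adjusted p = 0.0528) and with robust variances (0.0568).

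Trim25 had 23.5, 24.0 and 24.6 FPKM in combined, 24.0, 21.7 and 24.2 in Zmiz1-titled, 27.4, 27.1 and 23.6 in Notch1-titled libraries and 28.2, 29.4 and 28.4 in control libraries. Its 6 libraries with Zmiz1 lay below the 3 control libraries, and no change passed the test. Median ratio and quantile scaling called Trim25 lower in combined over control cells. Parp14, another gene of this stretch of chromosome 16, had 1.91, 2.05 and 2.12 FPKM in combined and 2.36, 2.77 and 2.24 in control libraries, which did not overlap (−0.19, limma adjusted p = 0.311). Trim30a, a ubiquitin ligase of the TRIM family, averaged 1.32 in combined, 1.24 in Zmiz1-titled, 1.78 in Notch1-titled libraries and 1.70 FPKM in control libraries, and all 6 libraries with Zmiz1 lay below all 6 without it.

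Among the antiviral effectors not called, Bst2, which ties virus particles to the cell surface, had the largest log2 fold change with Zmiz1 alone. It had 18.6, 18.1 and 18.9 FPKM in Zmiz1-titled libraries, against 26.0, 28.4 and 26.8 in control libraries, and the groups were apart (−0.52 ± 0.133 SE, limma adjusted p = 0.0916). In combined libraries it had 21.6, 26.9 and 25.2 FPKM, against 23.0, 26.0 and 35.6 in Notch1-titled libraries, and these groups overlapped (−0.17, limma adjusted p = 0.877). Ifi35, which forms a complex with another interferon-induced protein, had 9.33, 9.17 and 9.78 FPKM in combined libraries, against 10.4, 12.1 and 11.6 in control libraries, without overlap (−0.25, limma adjusted p = 0.0793), and shares 16.8% of its exonic bases with Gm11626. Rsad2 (viperin, an enzyme that makes a chain-terminating nucleotide) averaged 1.61 in combined, 1.15 in Zmiz1-titled, 2.17 in Notch1-titled libraries and 1.84 FPKM in control libraries. Samd9l, a growth and translation inhibitor, had 21.9, 21.2 and 23.3 FPKM in combined, 24.5, 20.1 and 23.4 in Zmiz1-titled, 27.0, 24.5 and 22.5 in Notch1-titled libraries and 26.0, 26.0 and 26.4 in control libraries. Its control libraries lay above all 6 with the Zmiz1 vector, without a call.

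The GTPases Igtp and Irgm1 guard the membranes of vacuoles that hold parasites and bacteria. Igtp had 14.1, 17.5 and 17.2 FPKM in combined, 14.8, 12.5 and 17.2 in Zmiz1-titled, 18.0, 19.3 and 20.9 in Notch1-titled libraries and 20.6, 21.9 and 20.6 in control libraries. All 6 libraries with Zmiz1 lay below all 6 without it, and no single comparison passed the test, though some alternative fits called Igtp lower. Of its exonic bases 8.0% are shared with the related gene Irgm2, so counts may be split between them. Irgm1 had 7.57, 4.08 and 7.62 FPKM in Zmiz1-titled libraries, against 9.05, 9.02 and 8.32 in control libraries, with Zmiz1-titled replicate 2, the library with the lowest mean correlation to the others (0.942), well under the other two (−0.44 ± 0.166 SE, limma adjusted p = 0.277). In combined libraries it had 7.99, 7.89 and 8.78 FPKM, against 8.37, 9.16 and 9.09 in Notch1-titled libraries, groups that overlapped. Gbp2 and Gbp3, relatives on chromosome 3 that attack the same vacuoles, were low. Gbp2 had 0.704, 0.918 and 0.762 FPKM in combined, 0.514, 0.713 and 0.854 in Zmiz1-titled, 1.16, 1.05 and 0.958 in Notch1-titled libraries and 1.14, 1.12 and 0.867 in control libraries, and Gbp3 had at most 0.702 FPKM in any library.

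No factor or sensor was called in any comparison (limma). Among the alternatives, a batch term for the replicate 1 libraries called Irf1, and a fit of the compared groups alone called Irf7. Both were lower in combined over control cells. Irf1, which is induced by interferon and drives loading genes, had 30.7, 34.5 and 35.0 FPKM in combined, 31.1, 36.8 and 36.0 in Zmiz1-titled, 34.0, 38.2 and 38.9 in Notch1-titled libraries and 32.7, 37.8 and 38.7 in control libraries, all overlapping. Stat2 had 8.34, 9.61 and 11.3 FPKM in combined, 8.42, 9.55 and 10.4 in Zmiz1-titled, 10.5, 11.4 and 11.1 in Notch1-titled libraries and 9.26, 10.4 and 11.4 in control libraries. Irf9, its partner in type I signaling, had 3.57, 3.66 and 4.16 FPKM in combined, 3.37, 6.22 and 3.70 in Zmiz1-titled, 3.87, 4.39 and 4.07 in Notch1-titled libraries and 4.15, 4.82 and 4.75 in control libraries. Irf7, which drives type I interferon genes, had 2.16, 2.22 and 2.65 FPKM in combined, 3.15, 1.85 and 2.97 in Zmiz1-titled, 2.24, 2.78 and 2.98 in Notch1-titled libraries and 2.98, 3.06 and 3.10 in control libraries. Zmiz1-titled replicate 2 was the highest of the 12 libraries for Irf9 and the lowest for Irf7. Zbp1, a sensor of left-handed nucleic acid that triggers necroptosis, was the highest sensor, with 42.1, 51.1 and 49.3 FPKM in combined, 42.3, 39.6 and 48.8 in Zmiz1-titled, 46.2, 54.0 and 61.4 in Notch1-titled libraries and 44.7, 54.0 and 52.5 in control libraries. Adar, which edits adenosine in double-stranded RNA, had 16.6, 18.9 and 15.3 FPKM in Notch1-titled libraries, against 19.2, 21.1 and 21.4 in control libraries, groups that did not overlap (−0.27, limma adjusted p = 0.225). Adar shares 16.8% of its exonic bases with Chrnb2 on the other strand. The kinase Eif2ak2 (PKR) had 2.65, 3.48 and 3.56 FPKM in combined, 3.16, 5.10 and 3.21 in Zmiz1-titled, 3.89, 4.27 and 3.27 in Notch1-titled libraries and 3.58, 4.16 and 4.25 in control libraries. The RNA sensor Ddx58 (RIG-I) had 2.42, 2.19 and 2.35 FPKM in combined, 2.51, 2.71 and 2.58 in Zmiz1-titled, 2.61, 2.73 and 2.39 in Notch1-titled libraries and 2.78, 2.66 and 2.89 in control libraries, and its combined libraries lay below those of Zmiz1-titled and control cells without a call.

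In antigen processing, the immunoproteasome replaces 3 catalytic subunits of the standard proteasome: Psmb8 takes the place of Psmb5, Psmb9 of Psmb6 and Psmb10 of Psmb7. Psmb8, Psmb9, Tap1 and Tap2 lie together in the MHC region of chromosome 17, with all start sites within 15974 bases, and the Psmb9 and Tap1 start sites are 211 bases apart on opposite strands. The 6 loading genes made up most of the summed level of the 43 genes, 596 to 632 FPKM in combined, 548 to 599 in Zmiz1-titled, 614 to 736 in Notch1-titled libraries and 626 to 654 in control libraries. None of the 6 was called in any comparison, and all 6 had a negative log2 fold change in both Zmiz1 comparisons.

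Psmb10 had 37.7, 34.0 and 40.0 FPKM in Zmiz1-titled libraries, against 46.6, 46.4 and 45.6 in control libraries, and the groups were apart (−0.31, limma adjusted p = 0.106). Psmb9 had 95.7, 88.9 and 105 FPKM in Zmiz1-titled libraries, against 112, 116 and 117 in control libraries, also apart (−0.26, limma adjusted p = 0.242). Psmb8 had 192, 169 and 197 FPKM in Zmiz1-titled libraries, against 206, 206 and 204 in control libraries, apart as well (−0.14, limma adjusted p = 0.486). In combined over Notch1-titled cells the log2 fold changes of these 3 genes were −0.20, −0.20 and −0.08, with overlapping groups. Of the transporter, Tap1 had 33.0, 34.2 and 33.6 FPKM in combined libraries, against 35.9, 37.7 and 37.3 in Notch1-titled libraries, without overlap (−0.14, limma adjusted p = 0.396). Tap2 had 192, 206 and 205 FPKM in combined, 174, 201 and 196 in Zmiz1-titled, 199, 227 and 237 in Notch1-titled libraries and 197, 212 and 220 in control libraries, all overlapping. Tapbp had 26.3, 25.8 and 25.9 FPKM in combined libraries, against 29.0, 31.1 and 31.5 in Notch1-titled libraries, and 26.4, 22.4 and 27.3 in Zmiz1-titled libraries, against 30.3, 32.0 and 32.2 in control libraries. Its 6 libraries with Zmiz1 lay below the 6 without it, with no call. Median ratio and quantile scaling called Tapbp lower in combined over control cells. Of its exonic bases 24.9% are shared with Gm19412 on the other strand, as are 14.7% of Psmb8 with Gm20496 and 14.1% of Tap2 with Gm15821.

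The standard subunits gave no call in any comparison: Psmb5 had group means of 127 to 149, Psmb6 of 130 to 145 and Psmb7 of 212 to 228 FPKM, levels per length that put Psmb8 above Psmb5, Psmb9 below Psmb6 and Psmb10 well below Psmb7 in every group. The chaperones of class I folding and loading were called higher with the Notch1 mutant. Calr (calreticulin) had 432, 500 and 470 FPKM in combined and 239, 226 and 257 in Zmiz1-titled libraries, and 333, 378 and 377 in Notch1-titled libraries and 238, 255 and 248 in control libraries. It rose with the mutant, by 0.55 in Notch1-titled over control (limma adjusted p = 0.00174) and 0.95 in combined over Zmiz1-titled cells (limma adjusted p = 3.91e-05), and by 0.37 in combined over Notch1-titled cells (limma adjusted p = 0.0428). This last call was lost when any library but Zmiz1-titled replicate 2 or 3 was left out alone (limma adjusted p up to 0.194). It was also lost with quantile normalization (limma adjusted p = 0.0567), no filter (0.0548) and a filter at 5 FPKM (0.0512). A fit of only the compared groups lost it too (limma adjusted p = 0.174). Pdia3, the oxidoreductase of the complex, had 290, 279 and 278 FPKM in combined, 201, 175 and 188 in Zmiz1-titled, 243, 226 and 235 in Notch1-titled libraries and 191, 179 and 174 in control libraries. Canx (calnexin) had 123, 110 and 113 FPKM in combined, 84.9, 79.7 and 72.7 in Zmiz1-titled, 108, 91.7 and 92.4 in Notch1-titled libraries and 81.5, 70.0 and 68.2 in control libraries. Pdia3 rose by 0.37 and 0.59, and Canx by 0.41 and 0.54, in Notch1-titled over control and in combined over Zmiz1-titled cells, and the first Canx call was lost when any of 6 libraries was left out alone (limma adjusted p up to 0.124). That Canx call was also lost with median ratio scaling, quantile normalization and only the compared groups fitted (limma adjusted p = 0.0580, 0.0725 and 0.0883). Calr, Pdia3 and Canx were the only genes called among the 12 genes of the standard proteasome and loading list. Of all genes, 3.19% were called higher in Notch1-titled over control, 2.67% in combined over Zmiz1-titled and 0.827% in combined over Notch1-titled cells.

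**Figure D5:**
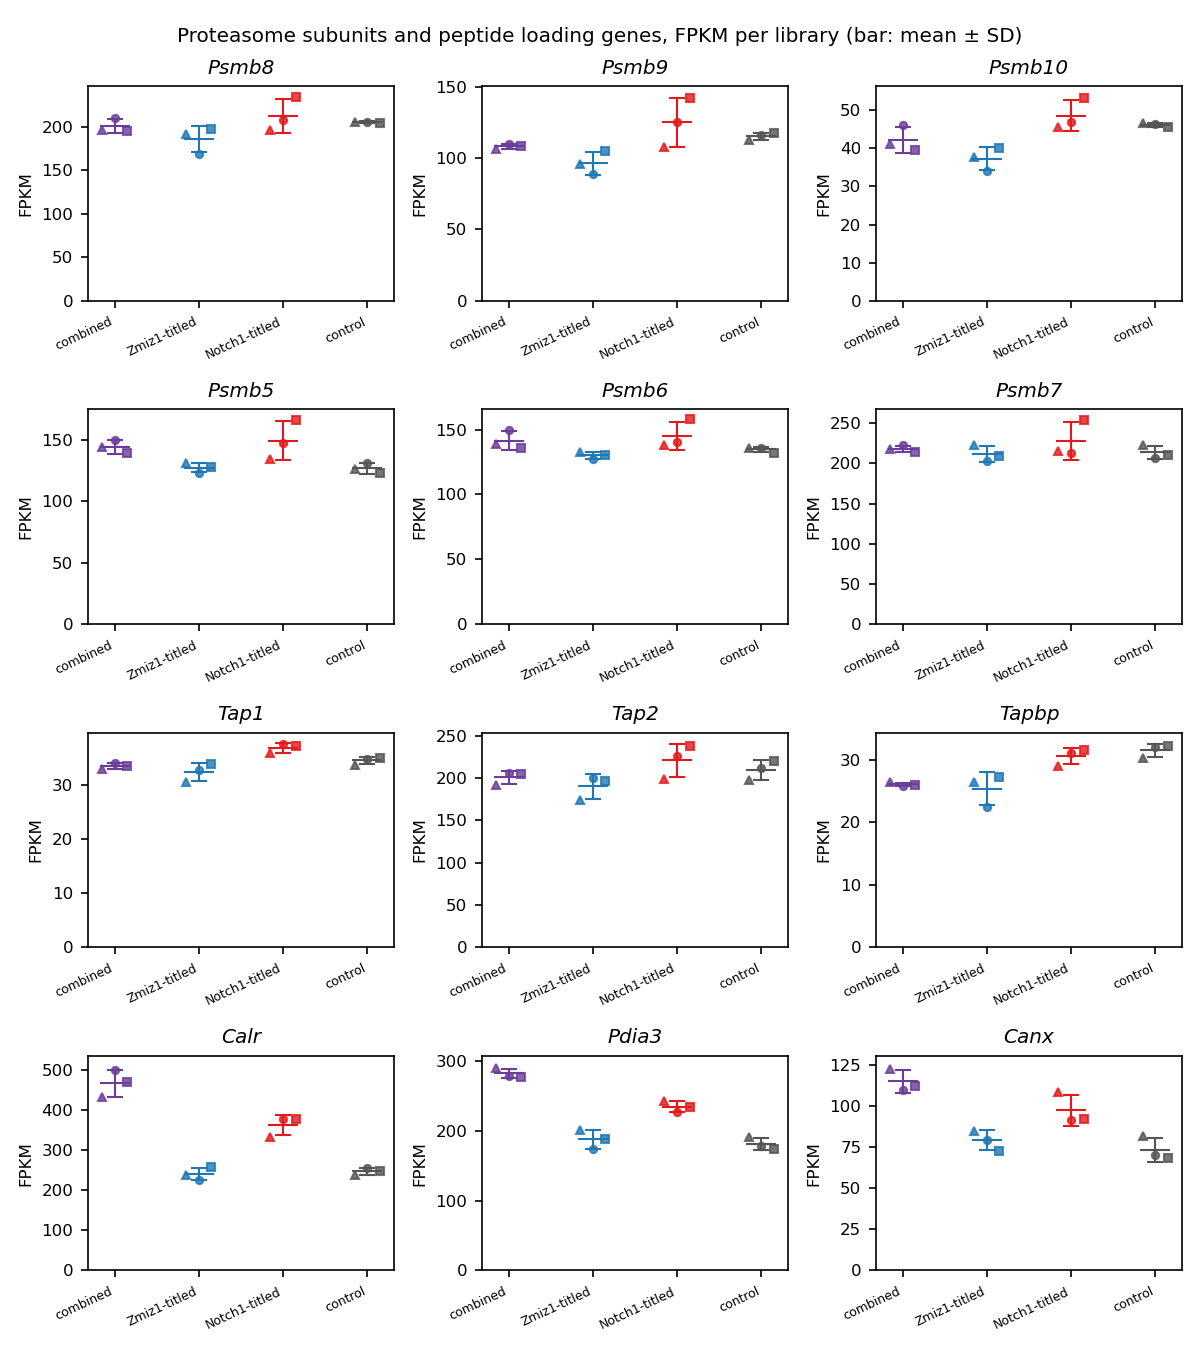
FPKM per library (triangle, circle and square for replicates 1, 2 and 3; bars give the mean ± SD, n = 3) of the immune subunits, their standard counterparts, the transporter with tapasin, and the loading chaperones, for combined, Zmiz1-titled, Notch1-titled and control cells. Calr, Pdia3 and Canx are highest in combined and next in Notch1-titled cells, as with Calr means of 467 and 363 against 241 in Zmiz1-titled and 247 in control cells, while the group means of Psmb7 run from 212 to 228.

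Upstream, among 11 tested genes of the list of receptors, kinases and other factors, Ifngr1, the ligand-binding chain of the interferon gamma receptor, fell with Zmiz1. It had 266, 233 and 260 FPKM in Zmiz1-titled libraries, against 327, 329 and 322 in control libraries (−0.37, limma adjusted p = 0.0111), where 1.03% of all genes were called lower. In combined libraries it had 271, 276 and 272 FPKM, against 350, 347 and 381 in Notch1-titled libraries (−0.39, limma adjusted p = 0.00759), where 0.68% were called lower. For Ifngr1 all 6 libraries with Zmiz1 lay below all 6 without it. The first call was lost when control replicate 2 or 3 was left out alone (limma adjusted p up to 0.0622), and the second was kept without any 1 library. The receptor kinase Jak1 had 96.3, 98.1 and 103 FPKM in combined, 117, 107 and 114 in Zmiz1-titled, 96.7, 95.2 and 84.3 in Notch1-titled libraries and 117, 116 and 118 in control libraries. It fell in Notch1-titled over control cells (−0.34, limma adjusted p = 0.00907) and in combined over control cells (−0.24, limma adjusted p = 0.0483), the second call being lost when any of 9 libraries was left out alone (limma adjusted p up to 0.161). Of all genes, 2.3% were called lower in the first of these comparisons and 2.49% in the second.

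Of 19 tested genes among the 49 other interferon-induced genes in the files, Gbp4, a GTPase, was called. It fell in Zmiz1-titled over control cells (−0.29, limma adjusted p = 0.0233), against 1.03% of all genes called lower. It also fell in combined over control cells (−0.29, limma adjusted p = 0.0113), against 2.49% of all genes. Its values were 5.94, 6.25 and 5.97 FPKM in combined, 6.05, 5.97 and 6.09 in Zmiz1-titled, 7.48, 6.81 and 7.60 in Notch1-titled libraries and 7.82, 7.28 and 7.79 in control libraries. The Gbp4 call was lost when any of 6 libraries was left out in the first comparison (limma adjusted p up to 0.125) and any of 4 in the second (limma adjusted p up to 0.0604). The median log2 fold change of the 19 in Zmiz1-titled over control cells was −0.071, with 13 negative and 6 positive, up to 0.54. Of all genes, 49.1% were negative. The summed level of the 49 was higher with Zmiz1, at 1137 to 1281.1 FPKM in Zmiz1-titled and 1095.7 to 1114.5 FPKM in control libraries. It was 1131.1 to 1190.3 FPKM in combined and 990.37 to 1077.9 FPKM in Notch1-titled libraries, where 14 of the 19 log2 fold changes were negative. Traf3, an adaptor of the sensing pathways, had 4.13, 4.33 and 4.59 FPKM in combined libraries, against 2.82, 2.96 and 3.25 in control libraries. It rose in combined over control cells (0.42, limma adjusted p = 0.00819), against 3.97% of all genes called higher, and was the only call among 7 tested adaptors.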

How the data were processed

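The deposited values were FPKM per gene symbol, 1 file per library, per the file headers. Per the submitters' processing notes, the build was mm10 and the tools were Cuffdiff 2.1.1, Cufflinks, Bowtie2 2.1.0.0, TopHat2 2.0.9 and FastQC 0.10.0; settings and annotation are not given in the sources used here. No read totals are in these files, so the depth is unknown and no counting interval is given; each library summed to 549098 to 606908 FPKM over 14233 to 14554 genes above 0.

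Values were used as log2(FPKM + 1), for genes averaging 1 FPKM or more across the 12 libraries. One limma model (3.58.1, R 4.3.3; trend, 4 group means, 8 residual degrees of freedom) gave all comparisons, two-sided. With 3 libraries against 3, exact permutation allows no p below 0.1. Genes below that mean were read from a separate fit on 16835 genes, with no filter. The fit was also run on simulated data, and the outcome is not reported here. Positions are those of GENCODE M21 (GRCm38) and promoters those of RefSeq.

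The 43 genes, the other lists and the motifs were chosen with earlier results of these data known. All 43 genes may be named; by the rule, those called and the 4 highest of each role are given per library in the groups a comparison is about, and genes of other lists are named where called. Ifi35, Tap1 and Tapbp were added after their values were seen. Gbp3 is given by its highest value and the called T cell markers by their fold changes. Ifnl2, Ifnl3, Ifnlr1, Ifit3b, Phf11d, Rnf213, Helz2 and Mb21d1 are not analysed here. Alternatives were other pseudocounts, filters, scalings, robust variances, fits of the compared groups alone, a replicate block and leaving out each library. A pseudocount of 0.01, a batch term for the replicate 1 libraries and a fit without them were added after seeing the data.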

Additional observations from a re-analysis of the deposited data

How the results depend on the processing

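No fold change reversed its sign among called results under any alternative run. With a pseudocount of 0.1 or 0.01 Zmiz1-titled over control cells gave 2 calls among the 43 genes in place of 1, and the interaction 3 over all genes in place of 7. A filter at a mean of 5 FPKM, under which Lgals3bp, Ifi27l2a and Isg20 are not tested, gave 0 calls in Zmiz1-titled over control (121 of all genes in place of 214), 0 in combined over Notch1-titled (101 in place of 153), 1 in combined over Zmiz1-titled and 3 over all genes in the interaction. With no filter the interaction gave 18 over all genes. Median ratio scaling gave 3 calls in Zmiz1-titled and 6 in combined over control, quantile normalization 3 and 5 (4 over all genes in the interaction), and robust variances 2 in Zmiz1-titled over control. In Zmiz1-titled over control cells, median ratio scaling added Ifi27l2a and Igtp, quantile normalization Dtx3l and Tapbp, and robust variances Igtp. In combined over control cells both scalings added Tapbp and Trim25, and median ratio scaling also Ifi35. All of these were lower. Among all called genes, the share higher was 48.1% and 47.5% under these scalings, in place of 58.2%, in Notch1-titled over control, 52.6% and 48.1%, in place of 61.4%, in combined over control, and 58.9% and 60.3%, in place of 69.1%, in combined over Zmiz1-titled cells. With only the compared groups fitted, all-gene calls were 49, 155 and 1386 in Zmiz1-titled over control, combined over Zmiz1-titled and combined over control, and calls among the 43 genes 1 (Bst2 in place of Lgals3bp), 1 and 9. The 9 were Dtx3l, Epsti1, Ifi27l2a, Igtp, Irf7, Samd9l, Tapbp, Trim25 and Trim30a, all lower. Among the other lists, calls of Cd3d, Cd7, Gbp4, Ifngr1, Jak1 and Lck were each lost in at least 1 of these alternative fits. Causes were not tested.

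Same-numbered libraries of different groups had deviations correlated at −0.176 to 0.267 (median 0.043), with 6 of 18 pairs over 0.1. Other-numbered libraries of different groups had −0.233 to 0.198 (median −0.021), with 4 of 36 pairs over 0.1. The main fit does not take the numbers as pairs, and a block on them was run as an alternative. A replicate block gave 4, 2 and 5 calls among the 43 genes in Zmiz1-titled, Notch1-titled and combined over control, and 365, 1059, 260, 721 and 1158 over all genes in Zmiz1-titled over control, Notch1-titled over control, combined over Notch1-titled, combined over Zmiz1-titled and combined over control. A batch term for replicate 1 gave 8, 2 and 8 among the 43 genes and 408, 1132, 285, 739 and 1239 over all genes. In Zmiz1-titled over control cells the block and the batch term both added Epsti1, Igtp and Tapbp, and the batch term also Bst2, Dtx3l, Ifi27l2a and Trim25, all lower. In combined over control cells both added Ifi35 and Tapbp, lower, and the batch term also Irf1 and Trim25, lower, and Isg20, higher. Replicates 2 and 3 alone gave 0, 0, 1, 0 and 1 among the 43 genes, with Ifi27l2a and Epsti1 kept, and 30, 182, 44, 112 and 195 over all genes (4 in the interaction). Without 1 library at a time, calls among the 43 genes ranged 0 to 5, 1 to 2, 1 to 2, 1 to 4 and 2 to 6 in these comparisons, and over all genes 73 to 240, 270 to 982, 74 to 302, 182 to 503 and 331 to 1076; the interaction gave 0 and 5 to 8. Zmiz1-titled over control gave 0 without control replicate 1, 2 or 3 or Zmiz1-titled replicate 1. It gave 5 with Notch1-titled replicate 3 left out, and 2 when the library left out was Zmiz1-titled replicate 2 or 3 or replicate 1 of the combined or the Notch1-titled cells. Notch1-titled over control gave 2 without Notch1-titled replicate 1, and combined over Zmiz1-titled 1 without combined replicate 1 or 3. Leaving out Zmiz1-titled replicate 2 gave 2 in combined over Notch1-titled and 6 in combined over control cells.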

Other observations

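Some genes of the other lists lay under 1 FPKM and were tested without the filter. Irf8, an interferon regulatory factor of myeloid cells and B cells, had 0.956, 1.12 and 1.05 FPKM in combined, 0.806, 0.583 and 0.733 in Zmiz1-titled, 0.871, 0.761 and 0.862 in Notch1-titled and 0.527, 0.420 and 0.572 in control libraries. All 3 combined libraries lay above the other 9. It was higher in combined over control cells (log2 fold change 0.44, limma adjusted p = 0.00200), in a comparison that called 4.4% of 16835 genes, and in Notch1-titled over control cells (0.28, limma adjusted p = 0.0279), with 3.56% called. Gbp9, a GTPase near 1 FPKM, fell in combined over control cells (−0.28, limma adjusted p = 0.0209). Of the 13 genes under the filter among the 43, 12 could be tested in that fit and none was called in any comparison. An unadjusted p under 0.05 was seen for Gbp2, Mx2 and Oasl2, all lower, in Zmiz1-titled over control cells (limma adjusted p = 0.192, 0.399 and 0.162). Oasl2 lay at the floor, with at most 0.0297 FPKM in any library and 0 in every Zmiz1-titled library, and Mx2 had at most 0.469 FPKM. The share of all genes with such a p was not computed for that fit.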
